A study of Danio rerio with 18 samples.

Results

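Zebrafish (Danio rerio) embryos with extra Fgf3 were compared directly with embryos whose FGF receptors were inhibited by SU5402, using 12 of the 18 arrays of the study, 6 labelled FGF overexpression and 6 labelled as treated with SU5402. The 12 arrays were chosen by their titles alone. RNA came from cells of the lateral line primordium, an epithelial cell group that travels down the flank of the embryo and deposits the sensory organs (neuromasts) of the posterior lateral line. Both groups, like the 6 control arrays, came from embryos younger than 3 days post-fertilization that carried the reporters cldnb:lynGFP and cxcr4b:nls-tdTomato and were given 10 µM RU486 with 0.1% DMSO. The SU5402 embryos received 1 µM SU5402, a small molecule that inhibits FGF receptors, in addition to these carriers. The FGF overexpression embryos received the carriers only and carried 2 more transgenes, cxcr4b:LexPR, a transcription activator that RU486 switches on, and lexOP:Fgf3-GFP, which that activator turns on. Extra Fgf3 cannot be told apart from the presence of those transgenes and of GFP-tagged protein, since no group carried the driver without the Fgf3 transgene. The driver acts in cells that use the cxcr4b promoter, and how the inhibitor was applied is described by concentration alone. The labels do not say how the primordium cells were isolated. The samples are labelled biological replicates without naming separate clutches or days, so the p-values measure the spread between these samples, which may be technical in part.

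FGF ligands bind receptor tyrosine kinases and, through Ras and the ERK kinases, switch on ETS transcription factors such as Etv4 together with inhibitors of the same route, the Sprouty and Spred proteins and the phosphatase Dusp6. In the primordium, Wnt signalling marks the leading cells, which express Fgf3, Fgf10a and the transcription factor Lef1. FGF signalling acts in the trailing cells, where it is needed for the epithelial rosettes that become neuromasts, for the hair cell factor Atoh1a and for the expression of Wnt antagonists. Values below are log2 signals as deposited, 1 per gene and array, from the gene's probe set of highest mean in all 18 arrays. A difference is always FGF overexpression minus SU5402, and a gene passed when limma's test, adjusted over all 75212 probe sets, gave a p under 0.05. Folds carry the words "at least" wherever the mean of the lower group did not exceed its arrays' median level (5.96 in SU5402, 5.92 in FGF overexpression, 5.92 in control), since signal there may be mostly background. Log2 differences of such genes have the same limit and may be too small, although they carry no such words.

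Of the 19260 genes, 4697 (24.4%) passed between FGF overexpression and SU5402, 2407 higher (12.5%) and 2290 lower (11.9%) under FGF overexpression. A difference of at least 2-fold was shown by 504 of the higher genes (2.62%) and 300 of the lower ones (1.56%). The median difference over all genes was -0.02. For 1692 genes (8.79%) every FGF overexpression array lay above every SU5402 array, and for 1500 genes (7.79%) the reverse held. The array medians lay between 5.89 and 5.99 on a scale that reached 13.88. Correlations across probe sets were 0.967 to 0.983 between arrays of the same group and 0.952 to 0.968 between SU5402 and FGF overexpression arrays. Against control 2832 genes (14.7%) passed under SU5402 and 1135 (5.89%) under FGF overexpression. These 2 comparisons use the same control arrays, and values against control are given below only to place the members.

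The label was checked against genes known from the primordium. Of 13 markers listed, 12 were measured and six1b was not found among the measured symbols. The tight junction gene cldnb, whose promoter drives the membrane reporter, had means of 11.83 in SU5402 and 11.93 in FGF overexpression (adjusted p = 0.392). The chemokine receptor gene cxcr4b, whose promoter drives the nuclear reporter and the transgene activator, had means of 10.85 and 11.01 (adjusted p = 0.509). Both genes were thus far above the array medians in both groups, as were eya1 (11.99 and 11.83), a placode transcription cofactor, and epcam (11.74 and 11.87), an epithelial adhesion gene. Neither eya1, epcam nor pax2a passed, and cdh1, the E-cadherin gene, differed by 0.28 (adjusted p = 0.0377). The other markers, ackr3a, ackr3b, lef1, fgf10a, atoh1a and dlb, passed and are described with their groups. Each of the 34 measured skeletal muscle markers was above the array median in at least 1 of the 2 groups. Their mean level per array was 9.89 to 10.95 in SU5402 and 10.04 to 10.85 in FGF overexpression. The RNA may therefore not have come from primordium cells alone, and its cell sources were not tested. In such bulk RNA, fewer cells of a type and less RNA per cell cannot be told apart.

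The transgene's own gene, fgf3, was at 8.71 to 9.43 with a median of 9.12 in SU5402, 6.30 to 7.60 with a median of 7.21 in control and 12.22 to 12.59 with a median of 12.36 in FGF overexpression. The 3 ranges did not overlap, and control, not SU5402, was the lowest group. FGF overexpression exceeded SU5402 9.69-fold (log2 difference 3.28, SE 0.17, adjusted p = 1.10e-10, n = 6 per group), while SU5402 itself exceeded control by 1.99 (adjusted p = 2.42e-07). For this ligand the SU5402 arrays are therefore no low end, and the difference from SU5402 is smaller than that from control (5.27). Whether the probe set reads the transgene, the native gene or both is not stated in the files, and the FGF overexpression values lie near the top of the array's scale, where differences can be compressed.

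The ligand genes fgf10a and fgf10b ran opposite to fgf3. The leading-domain ligand gene fgf10a was at 10.68 to 10.90 with a median of 10.80 in SU5402, 8.80 to 9.48 with a median of 9.26 in control and 7.51 to 7.86 with a median of 7.68 in FGF overexpression. Its 3 groups formed separate steps, with FGF overexpression 8.62-fold below SU5402 (log2 difference -3.11, SE 0.10, adjusted p = 2.01e-13). Its paralog fgf10b was at 8.54 to 8.88 with a median of 8.78 in SU5402 and 4.76 to 5.43 with a median of 4.97 in FGF overexpression, at least 13.2-fold lower (log2 difference -3.73, SE 0.15, adjusted p = 2.19e-12), with control between them at 5.81 to 6.66 with a median of 6.49. Lower values under FGF overexpression were also measured for fgf6a (-1.97, adjusted p = 8.56e-09), fgf17 (-0.98, adjusted p = 4.20e-06) and fgf4 (-0.62, adjusted p = 0.00379). Both group means of fgf4 lay below the array medians, where signal may be mostly background. For fgf17 the SU5402 arrays (5.61 to 6.15) lay around the array median and the FGF overexpression arrays (4.56 to 5.40) below it, so the same limit holds. Among ligand genes other than fgf3, fgf24 was higher (1.30, adjusted p = 4.77e-04), and so were fgf13a (0.76) and fgf12b (0.46), which encode FGF-related proteins that stay inside the cell. In all, 5 of 31 measured ligand genes were higher and 7 lower (38.7% passed, against 24.4% of all genes). Their median was -0.08, and 13 of them were at or below the array median in both groups. Calls for 3 weak members rested on few arrays. With 1 array left out the adjusted p of fgf12a (0.0307) rose to as much as 0.0738, without SU5402 replicate 1, and 6 of the 12 such fits lost the call. That of fgf23 (0.0241) rose to 0.0586, without SU5402 replicate 3, and 5 of 12 fits lost it. The call for fgf20b (adjusted p = 0.0138) was kept in all 12 of them and was lost without replicate 6, or replicate 1, of every group. The ligand gene fgf8a was near background in both groups (5.29 and 5.68, adjusted p = 0.203).

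Of 20 genes for FGF receptors and their partners, 5 were higher and 2 lower (median 0.05, 35.0% passed against 24.4% of all genes). The receptor gene fgfr1a was at 8.39 to 8.71 with a median of 8.58 in SU5402 and 10.02 to 10.24 with a median of 10.08 in FGF overexpression, with control at 9.52 to 10.08 with a median of 9.86. No array of one end reached the other, and the difference was 2.88-fold (log2 difference 1.53, SE 0.09, adjusted p = 2.66e-10). The receptor genes fgfr4 (0.84, adjusted p = 0.0058) and fgfr1b (0.39, adjusted p = 0.00894) were higher by less. All control arrays of fgfr1b (9.55 to 9.95) lay above those of SU5402 (8.39 to 8.82) and of FGF overexpression (8.81 to 9.13). For fgfr2 the difference was 0.52 (adjusted p = 0.00107), but the control mean of 9.08 lay above both SU5402 (8.19) and FGF overexpression (8.70). The receptor gene fgfr3 did not pass (-0.28, adjusted p = 0.447). Of the partners, fgfbp1a, which encodes a secreted FGF-binding protein, was higher by 0.54 (adjusted p = 0.00392). The 2 lower genes encode leucine-rich repeat membrane proteins known to bind FGF receptors. One of them, flrt3, was at 9.95 to 10.17 with a median of 10.07 in SU5402 and 7.33 to 7.93 with a median of 7.78 in FGF overexpression, 5.16-fold lower (log2 difference -2.37, SE 0.10, adjusted p = 9.51e-12), and the control arrays (7.74 to 8.19) lay near the FGF overexpression arrays. The other, flrt2, was lower by a smaller amount (-0.59, adjusted p = 4.42e-04).

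The feedback inhibitors of the pathway were higher as a group, with 6 of 7 Sprouty and Spred genes passing and a median of 1.43, where 12.5% of all genes were higher. The Sprouty gene spry4 was at 8.32 to 9.42 with a median of 8.87 in SU5402, 9.48 to 9.87 with a median of 9.69 in control and 10.75 to 11.13 with a median of 10.95 in FGF overexpression. The groups did not overlap, and the ends differed 4.25-fold (log2 difference 2.09, SE 0.15, adjusted p = 6.64e-09). The Sprouty genes spry2 (1.47) and spry1 (1.43) and the Spred genes spred2b (1.76), spred2a (1.33) and spred1 (0.55) were higher as well, with adjusted p from 1.49e-09 for spred2a to 4.02e-05 for spred1. The remaining member, spred3, was at 5.98 and 5.88 (adjusted p = 0.675). The gene for the transmembrane inhibitor Il17rd (Sef) differed by 0.02 (adjusted p = 0.931), although it is a known member of the same FGF-induced group.

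Phosphatases of MAP kinases were less uniform. Of 15 measured Dusp genes, 5 were higher, 2 lower and 8 did not pass (median 0.21, 46.7% passed against 24.4% of all genes). The ERK phosphatase gene dusp6 was at 8.94 to 9.48 with a median of 9.35 in SU5402, 8.81 to 9.44 with a median of 9.30 in control and 10.41 to 10.82 with a median of 10.63 in FGF overexpression. All FGF overexpression arrays lay above the others, while SU5402 and control overlapped over almost their whole ranges. The difference between the ends was 2.53-fold (log2 difference 1.34, SE 0.11, adjusted p = 5.80e-08), and that between SU5402 and control was 0.03 (adjusted p = 0.916). For dusp14 the order was another, with SU5402 at 6.16, control at 7.38 and FGF overexpression at 7.30, so that here control lay with FGF overexpression (log2 difference 1.14, SE 0.15, adjusted p = 2.20e-05). The genes dusp3a (0.97), dusp4 (0.82) and dusp10 (0.47) were higher too. The 2 lower calls were not stable. For dusp8b (-0.94, adjusted p = 0.0419) 8 of 12 fits with 1 array left out lost the call, with an adjusted p of up to 0.10 without FGF overexpression replicate 2. That for dusp22b (-0.39, adjusted p = 0.0195) was lost without replicate 6, or replicate 1, of every group. The immediate early phosphatase gene dusp1 was at 11.19 in SU5402 and 11.19 in FGF overexpression (adjusted p = 0.993).

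Among ETS transcription factor genes 6 of 14 were higher and the other 8 did not pass (median 0.25, 42.9% higher against 12.5% of all genes). The most different was etv4, a factor of the Pea3 subfamily that FGF signalling induces. It was at 5.32 to 6.14 with a median of 5.76 in SU5402, 8.74 to 9.61 with a median of 9.33 in control and 10.82 to 11.13 with a median of 10.95 in FGF overexpression. The 3 groups formed separate steps, of which that between SU5402 and control (-3.53) was larger than that between control and FGF overexpression (1.73). The ends differed at least 38.1-fold (log2 difference 5.25, SE 0.14, adjusted p = 1.23e-14). Its relatives etv5b (1.94, adjusted p = 5.06e-09) and etv5a (1.19, adjusted p = 2.17e-07) were higher by less, as were elk3 (1.13, adjusted p = 8.83e-10) and the epithelial factor gene spdef (0.82, adjusted p = 0.00214). The repressor gene erf differed by 0.34 (adjusted p = 0.0338), and that call was lost in 6 of 12 fits with 1 array left out, with an adjusted p of up to 0.0745 without SU5402 replicate 4.

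**Figure D1:**
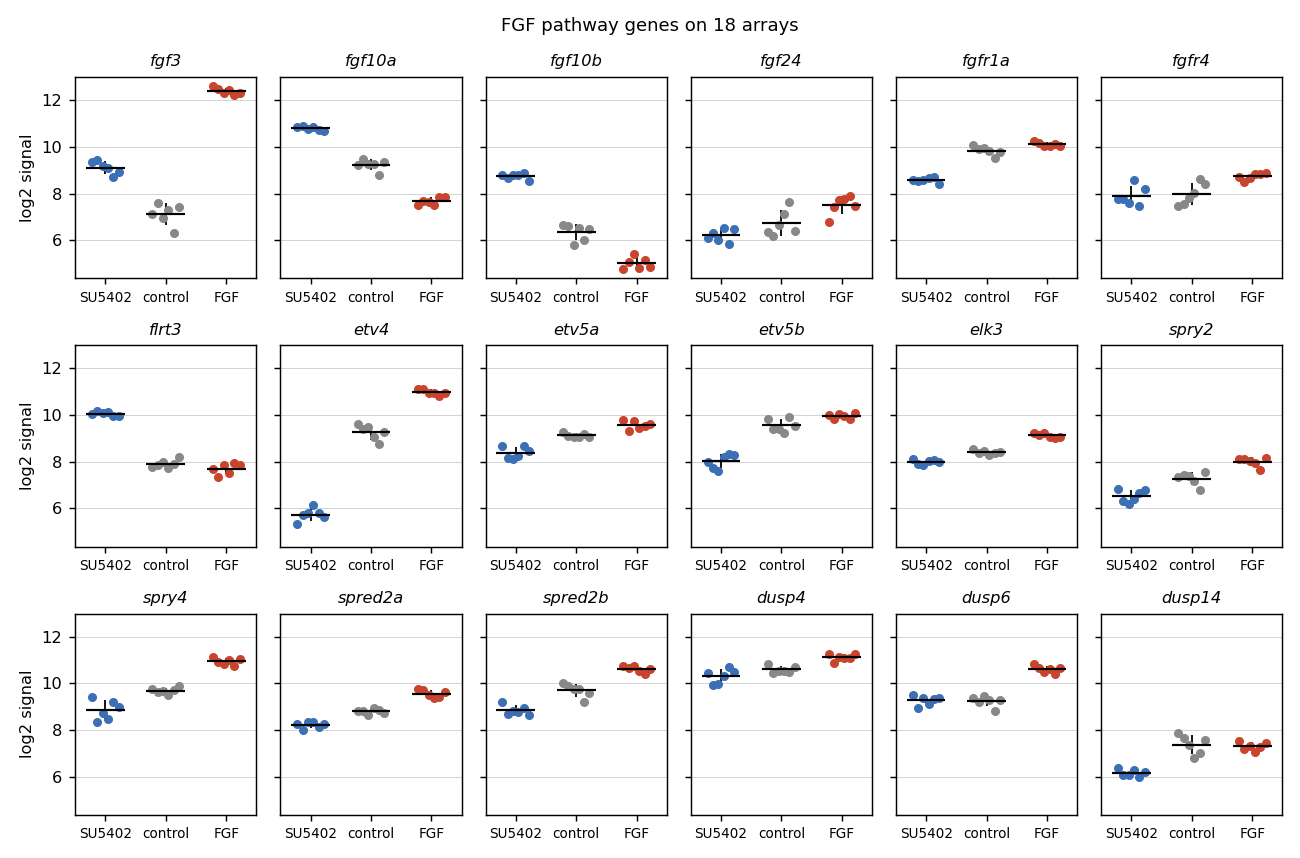
Log2 signal on each of the 18 arrays for genes of the FGF pathway, 1 panel per gene, with 6 points per group (SU5402, control, FGF overexpression), a horizontal bar at each group's mean and a vertical bar of 1 SD either side. The FGF overexpression points of etv4, spry4 and dusp6 lie above all SU5402 points, fgf10a runs the other way, and the lowest group of fgf3 is control.

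Immediate early genes did not share one direction. Of 28 measured members 3 were higher and 5 lower, a share near the background, with a median of -0.17. The growth factor-induced transcription factor genes myca (-2.02, adjusted p = 4.30e-10) and mycn (-1.93, adjusted p = 1.23e-09) were lower under FGF overexpression than under SU5402, as were mych (-0.91) and the AP-1 gene fosl2 (-0.78). For myca the arrays were at 8.43 to 8.60 in SU5402, 6.77 to 7.36 in control and 6.04 to 6.82 in FGF overexpression. For mycn they were at 8.16 to 8.76, 6.84 to 7.49 and 6.34 to 6.78 in the same order. The larger step of both genes lay between SU5402 and control. The Kruppel-like factor genes klf2b (1.18) and klf2a (0.89) were higher. The count of lower members was 9 without SU5402 replicate 2 and 8 without FGF overexpression replicate 1.

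Among genes with proper names, the 15 largest differences in each direction held secreted regulators of Wnt signalling on both sides. The Ly6-family gene negaly6, named for its expression in neuromasts, differed most. It was at 5.01 to 5.88 with a median of 5.65 in SU5402, 9.81 to 10.75 with a median of 10.40 in control and 11.28 to 11.80 with a median of 11.64 in FGF overexpression, at least 67.6-fold higher (log2 difference 6.08, SE 0.16, adjusted p = 9.05e-15). For this gene the larger step lay between SU5402 and control. The Dickkopf-family gene dkk2 was at 5.05 to 5.92 with a median of 5.53 in SU5402, 7.86 to 8.74 with a median of 8.34 in control and 10.88 to 11.30 with a median of 11.18 in FGF overexpression. It was at least 49.5-fold higher (log2 difference 5.63, SE 0.15, adjusted p = 9.05e-15), with control near the middle. The gene for sclerostin, sost, a secreted antagonist of Wnt coreceptors, was at 5.73 to 6.54 with a median of 6.10 in SU5402, 6.66 to 6.87 with a median of 6.72 in control and 10.80 to 11.47 with a median of 11.19 in FGF overexpression. Here control lay near SU5402, and the ends differed 33.8-fold (log2 difference 5.08, SE 0.13, adjusted p = 9.05e-15). The related gene sostdc1a, whose product binds Wnt coreceptors and BMPs, was at least 20.8-fold higher, from a mean of 5.02 to 9.40. The atypical chemokine receptor gene ackr3a was at 5.02 to 6.20 with a median of 5.20 in SU5402 and 9.34 to 10.25 with a median of 9.89 in FGF overexpression, at least 23.3-fold higher (log2 difference 4.54, SE 0.18, adjusted p = 2.39e-12). Its control arrays (6.65 to 7.04) lay between. Other large positive differences were those of b3galt10.1, a galactosyltransferase gene (at least 34.4-fold), the homeobox gene six2a (at least 30.4-fold), the membrane protease gene TMPRSS5 (at least 28.6-fold) and the junctional adhesion gene esama (13.9-fold). The ear matrix gene oc90, which encodes otoconin (13.0-fold, with a log2 difference of 3.70 that fell to 2.56 as the mean of its 2 probe sets), the keratin gene krt1-c5 (12.8-fold), the nuclear receptor gene rorb (12.7-fold), the Hsp70-family gene hspa8b (at least 12.1-fold) and the carboxypeptidase gene cpm (10.4-fold) completed the 15. Adjusted p in the 15 ran from 9.05e-15 to 7.89e-09, and 5 genes known by clone names only, with differences as large, were passed over.

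On the other side the neuropeptide gene adcyap1b, which encodes PACAP, differed most. It was at 10.16 to 10.64 with a median of 10.30 in SU5402, 5.85 to 6.59 with a median of 6.50 in control and 5.18 to 5.91 with a median of 5.69 in FGF overexpression, at least 26.8-fold lower (log2 difference -4.75, SE 0.14, adjusted p = 7.23e-14). The next was notum1a, whose product Notum is an enzyme that inactivates Wnts. It was at 11.58 to 11.89 with a median of 11.74 in SU5402, 7.62 to 8.44 with a median of 8.32 in control and 7.0 to 7.87 with a median of 7.21 in FGF overexpression. All SU5402 arrays lay more than 3 log2 units above the highest control array, and FGF overexpression was 21.7-fold lower than SU5402 (log2 difference -4.44, SE 0.15, adjusted p = 2.59e-13). The EGF-family ligand gene hbegfb (16.3-fold), the Runt factor gene runx2a (15.7-fold), the ear matrix gene OTOG (12.4-fold) and the Wnt ligand gene wnt10a (11.9-fold) were lower by more than 10-fold, in addition to fgf10b and osr1. The zinc finger gene osr1, the cortisol-inactivating enzyme gene hsd11b2, the cholecystokinin receptor gene cckbra, the Eph receptor gene epha7, the Shisa-family gene shisa3, the secreted kinase gene fam20cb, the Wnt target gene sp5a and fgf10a differed by -3.49 to -3.0.

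**Figure D2:**
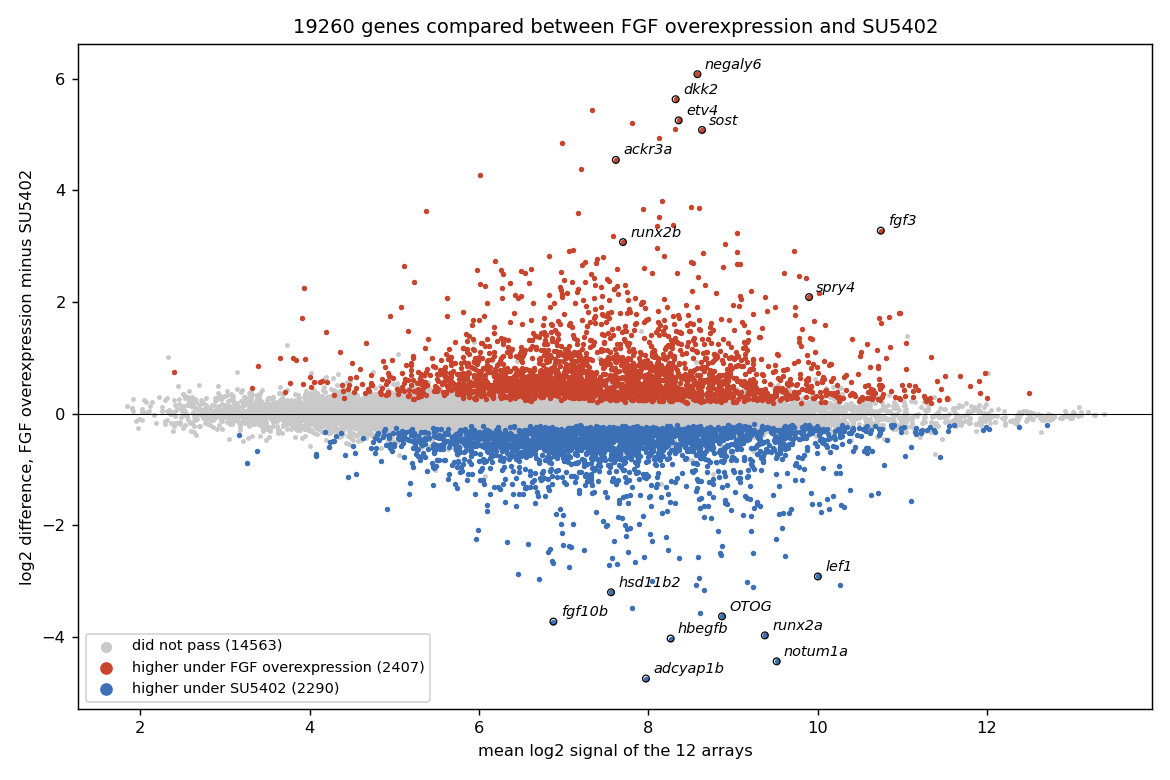
Difference of each of 19260 genes between FGF overexpression and SU5402 (log2, vertical axis) against its mean level over the 12 arrays (log2 signal, horizontal axis), with genes that passed in colour and a few of the largest named. Differences of more than 4 log2 units are seen at intermediate mean levels, with more of them above 0 than below.

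**Figure D3:**
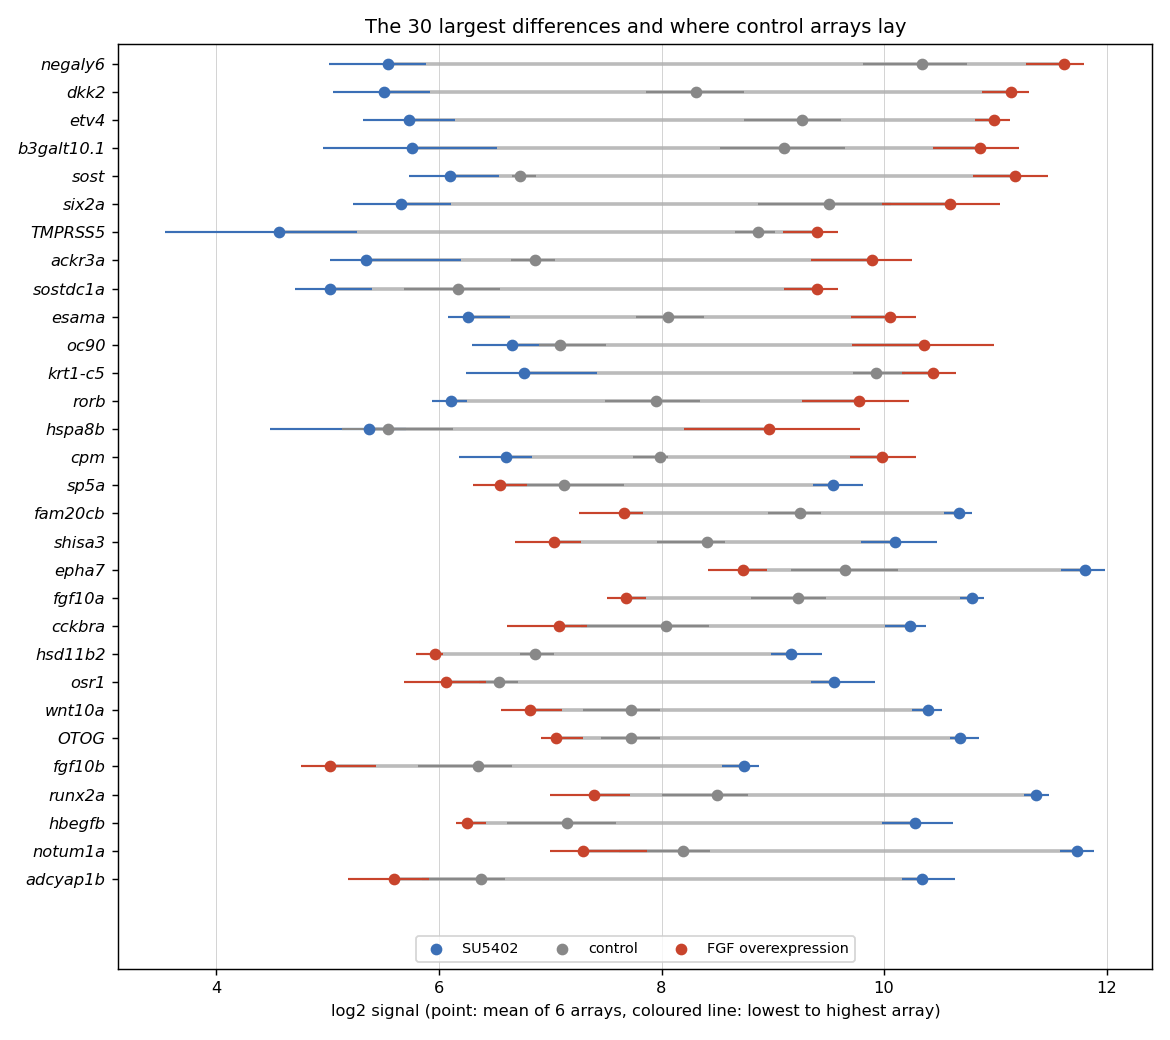
Levels of the 30 named genes with the largest differences (log2 signal), with a point at the mean of 6 arrays per group and a coloured line from the lowest to the highest array. Control lies close to FGF overexpression for negaly6 and TMPRSS5, near the middle for dkk2 and fgf10a, and close to SU5402 for sost and hspa8b.

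Wnt pathway genes were called in both directions, and often. Of 32 measured genes for Wnt feedback and antagonists 8 were higher and 15 lower, 23 in all (median -0.32, 71.9% passed against 24.4% of all genes). Besides notum1a and sp5a the lower group held notum1b (-2.22), rspo3, which encodes a secreted enhancer of Wnt signalling (-2.28, adjusted p = 1.18e-11), and wif1, which encodes a Wnt-binding inhibitor (-2.55). A further pair of members was picked after their values were seen. The feedback gene axin2 was lower by -1.70 on the log2 scale, from a mean of 10.09 in SU5402 to 8.40 (adjusted p = 1.40e-10), and the antagonist gene dkk1b was higher, from 6.41 to 7.82 with control at 7.93 (adjusted p = 2.80e-06). Of 40 Wnt ligand and Frizzled receptor genes 8 were higher and 11 lower (median -0.04, 47.5% passed). The ligand genes wnt10a, wnt6b (-2.70), wnt3 (-2.64) and wnt2bb (-1.34) were lower, whereas the receptor genes fzd8a (2.68, adjusted p = 1.77e-11) and fzd7b (0.96) were higher. Of 15 Tcf, Lef and coactivator genes 2 were higher and 6 lower (53.3% passed). The leading-domain factor gene lef1 was at 11.22 to 11.62 with a median of 11.45 in SU5402, 9.82 to 10.18 with a median of 9.91 in control and 8.29 to 8.66 with a median of 8.58 in FGF overexpression. The 3 groups did not overlap, and the ends differed 7.55-fold (log2 difference -2.92, SE 0.09, adjusted p = 7.23e-14). The factor gene tcf7 was lower than under SU5402 too (-0.83), but control was its lowest group. Its arrays were at 7.93 to 8.34 in control, 8.30 to 9.0 in FGF overexpression and 9.34 to 9.61 in SU5402. The beta-catenin gene ctnnb2 (-0.92) and its partner gene bcl9l (-0.83) were also lower. In contrast tcf7l2 was higher by 1.55 (adjusted p = 1.97e-09), with the control mean of 10.05 above both ends (7.96 and 9.51).

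Notch pathway genes that passed were more often higher than lower under FGF overexpression. Of 20 measured ligand, receptor and modifier genes 10 were higher, 3 were lower and 7 did not pass (median 0.30, 65.0% passed against 24.4% of all genes). Against control, 10 were lower and 0 higher under SU5402, while 4 were higher and 4 lower under FGF overexpression. The median against control was -0.26 under SU5402 and 0.04 under FGF overexpression. The glycosyltransferase gene mfng, whose product modifies Notch, was at 5.02 to 5.71 with a median of 5.26 in SU5402 and 7.44 to 8.34 with a median of 7.88 in FGF overexpression, with control at 6.69 to 7.01 with a median of 6.79. Neither end overlapped the other, and the difference was at least 6.03-fold (log2 difference 2.59, SE 0.14, adjusted p = 1.30e-10). The Delta gene dlb was at 6.57 to 7.88 with a median of 6.93 in SU5402, 8.28 to 8.67 with a median of 8.57 in control and 9.34 to 9.84 with a median of 9.58 in FGF overexpression, 5.72-fold higher (log2 difference 2.52, SE 0.18, adjusted p = 4.38e-09). The ligand genes jag2a (1.90) and dlc (0.96) and the receptor gene notch3 (0.80) were higher, and jag1b was lower (-0.85, adjusted p = 2.73e-06). For jag2a and dlc the control arrays overlapped with those of FGF overexpression and lay above those of SU5402. Of 22 Hes and Hey genes 7 were higher and 15 did not pass, led by hes2.2 (1.39), hey2 (1.28), her13 (1.06) and hes2.1 (1.02). Thus 31.8% passed, where 24.4% of all genes passed in either direction and 12.5% were higher. Notch induces some genes of this family but not all, so the counts do not by themselves stand for a Notch response.

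Part of the hair cell genes were higher too. Of 25 measured progenitor and differentiation factor genes 13 were higher, 1 was lower and 11 did not pass, where 12.5% of all genes were higher (median 0.55). The proneural gene atoh1a, which hair cells need to form, was at 6.31 to 6.89 with a median of 6.71 in SU5402, 7.65 to 8.39 with a median of 8.07 in control and 8.02 to 8.74 with a median of 8.42 in FGF overexpression. Control overlapped with FGF overexpression and not with SU5402, and the ends differed 3.36-fold (log2 difference 1.75, SE 0.14, adjusted p = 4.66e-08). The related gene atoh1b (1.26), the zinc finger genes insm1b (1.65), insm1a (1.02) and gfi1ab (1.36) and the Sox gene sox4a (0.71) were higher. Of 27 genes of the mature hair cell, its bundle and its synapse, 8 were higher, 1 was lower and 18 did not pass (median 0.21, 33.3% passed against 24.4% of all genes). They included the calcium buffer gene pvalb8 (1.80), the myosin genes myo7ab (1.55, adjusted p = 1.18e-07) and myo6b (1.07), and the synaptic gene otofa (0.66). The count of lower members there was 2 without SU5402 replicate 1.

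Transcription factors of placodes and the lateral line passed in both directions. Of 42 measured 14 were higher and 10 lower (median 0.15, 57.1% passed against 24.4% of all genes). The homeobox gene six2b was at 7.86 to 8.52 with a median of 8.31 in SU5402 and 10.91 to 11.43 with a median of 11.20 in FGF overexpression, 7.55-fold higher (log2 difference 2.92, SE 0.12, adjusted p = 4.69e-12), with control (10.47 to 11.05) near FGF overexpression. The homeobox gene gbx2 (2.80), the Sox gene sox3 (2.06) and the cofactor gene eya4 (1.36) were higher, and the homeobox gene dlx4b was lower (-2.04, adjusted p = 1.17e-08).

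The primordium follows Cxcl12 with the receptor Cxcr4b in leading cells and the scavenger Ackr3b in trailing cells. Of 17 measured members 4 were higher, among them cxcr4a (0.95), cxcl14 (1.01) and ackr3a, and the other 13, cxcr4b included, did not pass. The share that passed was near the 24.4% of all genes and is no result about the list. The scavenger gene ackr3b was at 9.12 to 10.12 with a median of 9.67 in SU5402, 11 to 11.74 with a median of 11.46 in control and 10.32 to 10.71 with a median of 10.61 in FGF overexpression. Control was the highest group, so ackr3b was lower under both treatments (adjusted p = 1.64e-07 for SU5402 and 0.00149 for FGF overexpression, each against the same control arrays), and the ends differed by 0.88 (adjusted p = 2.29e-04).

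Epithelial adhesion and polarity genes that passed were more often higher than lower. Of 39 measured, 16 were higher, 2 lower and 21 did not pass (median 0.13, 46.2% passed against 24.4% of all genes). The tight junction genes oclna (0.85), oclnb (0.98), marveld2b (0.97) and f11r.1 (0.49) and the polarity genes llgl2 (0.74) and scrib (0.69) led them, with differences all under 1 log2 unit. Skin genes were higher on the same arrays (described below), and their part in this result was not tested. Against control, 10 of the 39 epithelial genes were lower and 1 higher under SU5402, and 2 were higher and 0 lower under FGF overexpression. A list for apical constriction and the actomyosin cortex, which shape rosettes, also held amotl2a, AMOTL1 and ankrd1a, so not all members are actomyosin genes. Of its 27 measured genes 6 were higher and 12 lower (median -0.16, 66.7% passed). Against control, 0 were higher and 9 lower under FGF overexpression, and 2 were higher and 6 lower under SU5402. The list average lay below the control mean on all arrays of both groups, at -0.19 to -0.04 in SU5402 and -0.35 to -0.15 in FGF overexpression. The non-muscle myosin gene myh9a (0.63), shroom1 (0.63) and the junction scaffold gene amotl2a (0.80) were higher than under SU5402. For myh9a and shroom1 the control arrays overlapped with those of FGF overexpression and lay above those of SU5402. AMOTL1 (-0.58), the myosin light chain kinase gene mylka (-0.57) and ankrd1a (-1.02) were lower.

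Genes of the extracellular matrix and its sugar chains were called more often lower than higher. Of 43 basement membrane and integrin genes 7 were higher and 11 lower (41.9% passed, against 24.4% of all genes). The integrin gene itga6b was 3.07-fold lower (log2 difference -1.62, SE 0.09, adjusted p = 2.56e-10) and itgb6 was lower by a difference of -1.18, while itga8 (2.29), itga5 (1.52), the laminin gene lamb4 (1.34) and agrn (0.85) were higher. The SU5402 arrays of itga8 (4.34 to 5.18) lay below the array median, where signal may be mostly background. Heparan sulfate chains hold FGFs at the cell surface and take part in receptor binding. Of 37 genes of heparan sulfate enzymes and proteoglycans 5 were higher and 11 lower (median -0.09, 43.2% passed against 24.4% of all genes). The epimerase gene glceb was at 8.73 to 9.04 with a median of 8.82 in SU5402 and 6.34 to 7.02 with a median of 6.67 in FGF overexpression, 4.59-fold lower (log2 difference -2.20, SE 0.10, adjusted p = 2.01e-11), with control at 6.75 to 7.03. The sulfotransferase genes hs3st3b1a (-2.24) and ndst1a (-2.06) and the glypican genes gpc1b (-2.57) and gpc3 (-1.46) were lower, and a second glypican-1 gene, gpc1a, was higher (1.36, adjusted p = 6.69e-06). The extracellular matrix gene anos1b, which encodes anosmin, a protein that binds heparan sulfate, was lower as well (-2.94), with its 3 groups apart.

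Other signalling routes passed in both directions. Of 55 BMP and TGF-beta genes 12 were higher and 8 lower (median 0.03, 36.4% passed against 24.4% of all genes). Of the ligand genes bmp2a was higher (2.27) and bmp4 lower (-0.94), and the receptor gene bmpr1ba was lower (-1.07). Of 18 EGF family genes 3 were higher and 2 lower, a share near the background of 24.4%, although hbegfb was among the largest differences of all. The ligand gene tgfa was higher (1.38). Of 29 retinoic acid genes 5 were higher and 10 lower (median -0.22, 51.7% passed). The retinal reductase gene dhrs3a was at 7.98 to 8.86 with a median of 8.26 in SU5402 and 10.74 to 11.05 with a median of 10.83 in FGF overexpression, 5.74-fold higher (log2 difference 2.52, SE 0.13, adjusted p = 1.14e-10). The retinoic acid-degrading enzyme gene cyp26a1 was at 8.26 to 8.90 with a median of 8.43 and 5.72 to 6.35 with a median of 6.01, 5.41-fold lower (log2 difference -2.44, SE 0.13, adjusted p = 1.35e-10). In contrast, cyp26c1 (1.36) and cyp26b1 (0.85) of the same family were higher. Both group means of cyp26b1 lay below the array medians, where signal may be mostly background. Of 67 Eph, ephrin, semaphorin and guidance genes 19 were higher and 23 lower, 42 in all (median -0.03, 62.7% passed). The receptor gene epha7 was at 11.59 to 11.99 with a median of 11.84 in SU5402 and 8.42 to 8.95 with a median of 8.81 in FGF overexpression, 8.44-fold lower, and the receptor genes robo1 (-1.83) and robo3 (-1.53) were lower by less. The semaphorin gene sema3ga was higher (2.31), and sema3fa (-2.16) and sema4ba (-1.66) were lower.

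Cell cycle genes were higher under FGF overexpression than under SU5402, by small amounts. Of 71 measured mitosis and cyclin genes 57 were higher and 2 lower (median 0.55), against 12.5% of all genes higher. The survivin gene birc5a was at 6.56 to 6.76 with a median of 6.66 in SU5402, 7.25 to 7.55 with a median of 7.38 in control and 7.47 to 7.62 with a median of 7.55 in FGF overexpression, 1.86-fold higher (log2 difference 0.90, SE 0.07, adjusted p = 1.86e-08). Control and FGF overexpression overlapped, and SU5402 lay below both. The transcription factor genes e2f8 (0.97) and foxm1 (0.77), the kinase gene ttk (0.80) and the condensin gene ncaph (0.95) were also higher than under SU5402, and for these 4 genes the control mean lay above that of FGF overexpression. Of 45 DNA replication genes 24 were higher and 21 did not pass (median 0.34, 53.3% higher against 12.5% of all genes). They were led by the ribonucleotide reductase gene rrm1 (1.01, adjusted p = 1.07e-07), the thymidylate synthesis genes tyms (0.70) and tk1 (0.80), cdc6 (0.83) and the replication clamp gene pcna (0.51). Averaged over the mitosis and cyclin list, the arrays stood at -0.73 to -0.49 relative to the control mean in SU5402 and at -0.23 to -0.02 in FGF overexpression. The averages of both groups lay below the control mean, SU5402 by more. Against control, 56 of the 71 were lower under SU5402 and 6 under FGF overexpression, where 8.13% and 2.48% of all genes were lower. Of the 45 DNA replication genes 29 were lower under SU5402 and 4 under FGF overexpression, and 0 were higher in either. The average of that list stood at -0.62 to -0.31 relative to the control mean in SU5402 and at -0.21 to -0.01 in FGF overexpression.

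Ribosome biogenesis genes ran the opposite way. These genes make ribosomal RNA and assemble ribosomes in the nucleolus, and many are known targets of Myc. The genes myca and mycn were also lower than under SU5402, and a link between the 2 results was not tested. Of 71 measured, 59 were lower under FGF overexpression and 12 did not pass, with a median of -0.56 against 11.9% of all genes lower. The nucleolar gene mybbp1a was at 9.61 to 9.90 with a median of 9.74 in SU5402, 8.66 to 8.97 with a median of 8.88 in control and 7.91 to 8.42 with a median of 8.13 in FGF overexpression, 3.07-fold lower (log2 difference -1.62, SE 0.09, adjusted p = 1.53e-10). The 3 groups formed separate ranges. The fibrillarin gene fbl (-0.97), the methyltransferase gene nop2 (-0.83), wdr43 (-0.83), nop53 (-0.68) and the RNA polymerase I gene polr1a (-0.80) were lower by less. The list average stood at 0.26 to 0.55 above the control mean on the SU5402 arrays and at -0.29 to 0.04 on the FGF overexpression arrays. Genes of the ribosomal proteins themselves did not show this size. Their mean level per array was 12.03 to 12.11 in SU5402 and 11.96 to 12.01 in FGF overexpression, near the top of the scale, where differences can be compressed. Relative to the control mean the list average was at 0.042 to 0.116 in SU5402 and -0.035 to 0.023 in FGF overexpression, so the 2 ranges did not overlap. Of 60, 4 were lower in the test and 56 did not pass (median -0.09), and the 4, rpl5b, rpl37, rps24 and rps9, differed by -0.30 to -0.21. The count of lower members ran from 1 to 23 over the alternatives, so no count is firm for this list.

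**Figure D4:**
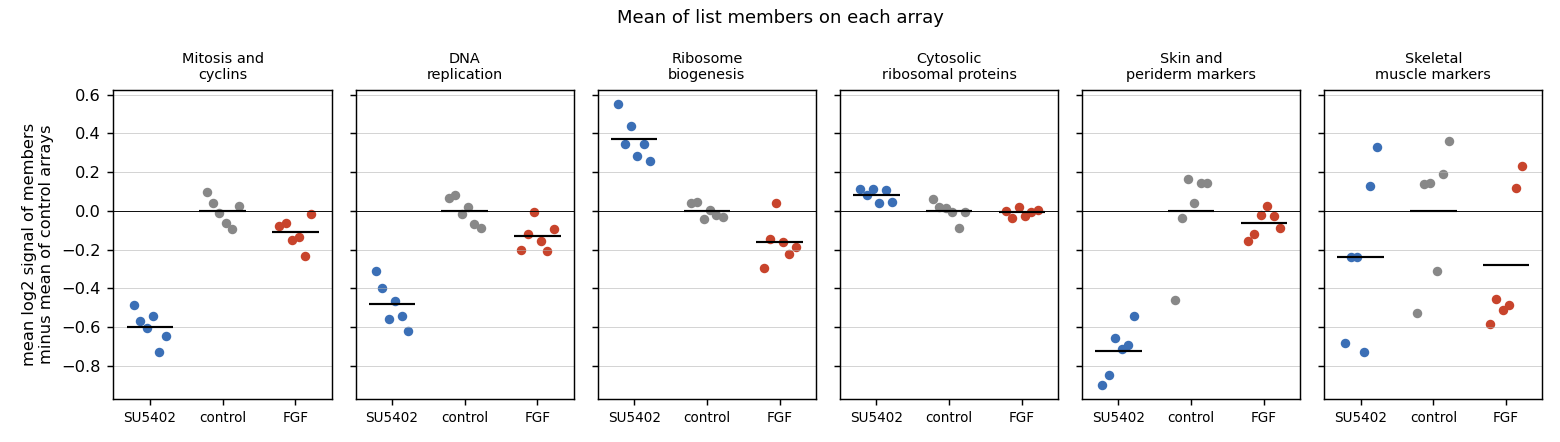
Mean level of each gene list on each array relative to the mean of the control arrays (log2), with 6 points per group, a bar at each group's mean and FGF standing for FGF overexpression. For mitosis and cyclins the SU5402 points lie below all others, for ribosome biogenesis they lie above all others, and skeletal muscle markers spread widely within every group.

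**Figure D5:**
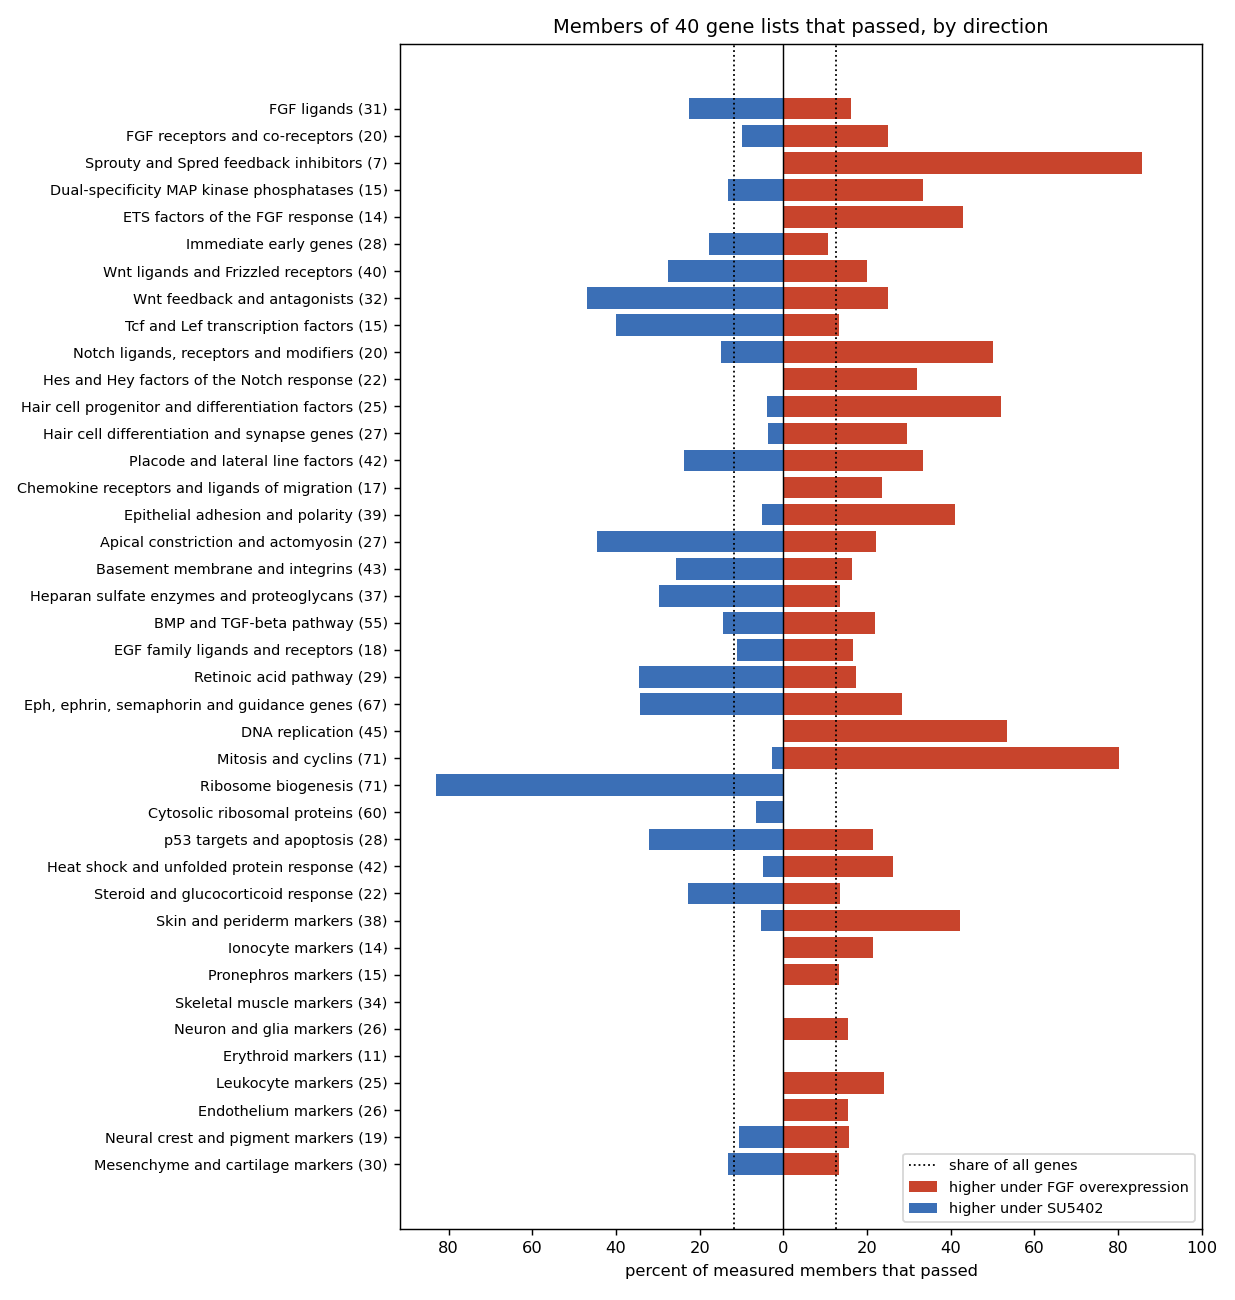
Percentage of the measured members of each gene list that were higher (to the right) or lower (to the left) in FGF overexpression than in SU5402, with the corresponding percentages of all genes as vertical lines. Mitosis and cyclins and Sprouty and Spred genes reach furthest to the right and ribosome biogenesis furthest to the left.

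Stress-related genes passed in both directions. Of 28 p53 target and apoptosis genes 6 were higher and 9 lower (median -0.05, 53.6% passed). On the lower side were the ribosomal protein-like gene rps27l (-1.0), the cell cycle inhibitor gene cdkn1a (-0.87) and bcl2a (-0.62), and on the higher tp53inp1 (0.73). Of 42 heat shock and unfolded protein response genes 11 were higher and 2 lower (median 0.04), so 31.0% passed, against 24.4% of all genes. The endoplasmic reticulum genes sdf2l1 (0.85), dnajc3b (0.74) and atf6 (0.39) were among the higher ones. Of 22 steroid response genes 3 were higher and 5 lower (36.4% passed). RU486, which both groups received, blocks glucocorticoid and progesterone receptors. The mineralocorticoid receptor gene nr3c2 was higher (2.26, adjusted p = 1.18e-09), the glucocorticoid target gene fkbp5 was higher by 0.46, and hsd11b2 and socs3a (-0.87) were lower.

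Among markers of other cell types, those of skin were called higher more often than the 12.5% of all genes. Of 38 measured skin and periderm markers 16 were higher and 2 lower (median 0.51), and 25 were higher without replicate 1 of every group. Their mean level per array was 7.96 to 8.32 in SU5402 and 8.70 to 8.89 in FGF overexpression, with control at 8.40 to 9.03. The mucus cell gene agr2 (1.71), the desmosome gene pkp1b (2.03), the keratin genes krt15 (1.29) and krt92 (1.14) and krt5 (0.56) were higher. The periderm keratin genes krt4 (0.18, adjusted p = 0.188) and cyt1l (0.16, adjusted p = 0.35), both far above the array median, did not pass. The part of skin cells in the differences of epithelial genes was not tested. Of 26 endothelium markers 4 were higher, a share near that of all genes (mean level 5.92 to 6.16 in SU5402 and 6.28 to 6.64 in FGF overexpression), including esama, egfl7 (2.96) and kdr (1.22); the part of endothelial cells in these was not tested. The defining endothelial genes kdrl (means 5.79 and 5.84, adjusted p = 0.903) and tie1 (5.34 and 5.52, adjusted p = 0.332) were at or below the array median in both groups, and cdh5 did not pass (adjusted p = 0.0727). Of 25 leukocyte markers 6 were higher and 0 lower, where 12.5% of all genes were higher and 24.4% passed in either direction. The mean level of these markers was 5.55 to 5.78 in SU5402 and 5.84 to 6.08 in FGF overexpression. The lysozyme gene lyz (2.20) and the protease gene mmp9 (1.71) were among the higher ones. The neutrophil gene mpx (0.27, adjusted p = 0.235) and the myeloid gene spi1b (-0.03, adjusted p = 0.889) did not pass and were below the array median in both groups. Of 14 ionocyte markers 3 were higher, foxi3b (1.47), slc12a10.2 (1.09) and atp1b1b (1.62), and 0 lower. Thus 21.4% passed, where 24.4% of all genes passed in either direction and 12.5% were higher. The call for atp1b1b was lost with any single FGF overexpression array left out. It was also lost without SU5402 replicate 1, 2 or 3. Of 15 pronephros markers 2 were higher, among them stc1 (2.82), and of 26 neuron and glia markers 4, both shares near that of all genes. Of 19 neural crest and pigment markers 3 were higher and 2 lower, so 26.3% passed, near the 24.4% of all genes. Of 30 mesenchyme and cartilage markers 4 were higher and 4 lower, with runx2b (3.07) and col1a1a (1.52) on one side and col12a1a (-2.04) on the other. The share that passed there, 26.7%, was also near that of all genes. By limma's test none of the 34 skeletal muscle markers passed, and none had an unadjusted p under 0.05 (median -0.03). None of the 11 erythroid markers passed either, with 4 lower at an unadjusted p under 0.05 (median -0.40).

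Genes whose 3 groups lay apart with control in the middle were ranked by the smaller of the 2 steps. The 8 that ascended from SU5402 to FGF overexpression with the largest smaller step were dkk2, etv4, b3galt10.1, ackr3a, esama, rorb, cpm and mgat1b. The glycosylation enzyme gene mgat1b was at 5.95 to 6.77 with a median of 6.47 in SU5402, 7.95 to 8.40 with a median of 8.19 in control and 9.51 to 10.12 with a median of 9.78 in FGF overexpression. Its steps were close in size, and the ends differed 10.2-fold (log2 difference 3.36, SE 0.15, adjusted p = 7.74e-12). The 8 that descended were fgf10b, fgf10a, shisa3, fam20cb, wnt3, lef1, anos1b and wif1. The Wnt inhibitor gene wif1 was at 10.75 to 11.03 with a median of 10.88 in SU5402, 9.01 to 9.97 with a median of 9.59 in control and 8.03 to 8.50 with a median of 8.38 in FGF overexpression, 5.87-fold lower at the FGF overexpression end (log2 difference -2.55, SE 0.13, adjusted p = 4.91e-11). The likeness of these 16 genes was fixed by the ranking and is a description.

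Some genes passed between the ends and in neither comparison with control. Of those whose 12 arrays did not overlap, the 5 higher genes with the smallest p were ifi27.3, b3gnt7, ifi30a, derl2 and tia1, and the 5 lower ones were adkb, tfap4, hs6st3a, cfap61 and mych. The interferon-inducible family gene ifi27.3 was at 4.92 to 5.47 with a median of 5.27 in SU5402, 5.38 to 6.22 with a median of 5.92 in control and 6.0 to 7.29 with a median of 6.37 in FGF overexpression (log2 difference 1.29, SE 0.20, adjusted p = 1.03e-04). The heparan sulfate sulfotransferase gene hs6st3a was at 6.03 to 6.62 with a median of 6.29, 5.40 to 6.58 with a median of 5.74 and 5.06 to 5.60 with a median of 5.24 in the same order (log2 difference -1.02, SE 0.16, adjusted p = 1.35e-04). For both, the control mean lay between the ends, and adjusted p against control was 0.0706 and 0.0573 for ifi27.3 and 0.0762 and 0.0671 for hs6st3a, for SU5402 and FGF overexpression in turn.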

How the data were processed

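The authors deposited 1 log2 signal for each probe set on each zebrafish gene array. Affymetrix Power Tools and RMA, which corrects background, normalizes between arrays and summarises probes, are named without versions in the submitters' processing notes. RMA can compress differences at low signal. The labels name neither the array's build nor its annotation. Per the labels' protocols, total RNA came from an RNeasy Plus kit, and an Ambion WT kit made the biotinylated cDNA. Arrays give no read depth; their number, 6 per group, limits the precision.

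Values were used as deposited, with no filter. One fit with limma 3.58.1 (R 4.3.3) over all 18 arrays had 1 mean per group, and p-values were two-sided, moderated and adjusted by Benjamini-Hochberg over 75212 probe sets; the threshold was 0.05, without a minimum fold. SE is the standard error of a log2 difference. Of the probe sets 20806 had 1 gene symbol, 855 several and 53551 none; 1365 of the 19260 genes had more than 1 probe set and were represented by that with the highest mean. The 40 gene lists named 1362 symbols, of which 1239 were measured, 9 through an older symbol in a table for the assembly GRCz12tu. The fit was tested on simulated data. Members and lists were chosen with earlier results of these data known. Named were the 15 largest differences each way among genes that passed with no overlap of arrays, all FGF ligand, receptor, Sprouty, Spred, Dusp and ETS genes (those near background by count), the 6 members with the smallest p in each further list, 8 graded genes each way, 5 each way that passed between the ends only, and fgf3, cxcr4b and cldnb; clone names were passed over. Defining markers of other cell types, fgf8a, axin2, dkk1b and the pairs of a and b genes were named after their values were seen. Promoter sequences were not analysed here. Alternatives changed the arrays in the fit, the normalization, array weights, the variance model, a level filter, the choice of probe set, the adjustment, a minimum fold, a replicate block and the replicates left out.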

Additional observations from a re-analysis of the deposited data

Results flagged for a closer look

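Of 248 groups of 6 arrays, for 121 genes and a few array summaries, 11 held a highest or lowest array whose gap to the next, as a share of the group's range, exceeded Dixon's critical value; chance alone flags about 1 in 20. Genes with large differences were among them. For negaly6, FGF overexpression replicate 5 was the lowest at 11.28 with the others at 11.61 to 11.80, and for ackr3a, SU5402 replicate 6 was the highest at 6.20 with the others at 5.02 to 5.39; both lay far from the arrays of the opposite end. Low arrays in FGF overexpression were replicate 2 for fgf1a (5.63, others 6.32 to 6.71), replicate 6 for klb (4.32, others 5.22 to 5.71) and replicate 6 for ehf (5.47, others 5.67 to 5.75), and a high one was replicate 1 for fgf12b (7.13, others 6.75 to 6.86). In SU5402 the low arrays were replicate 3 for fgf8b (4.83, others 5.23 to 5.40), replicate 4 for fgf17 (5.61, others 5.98 to 6.15) and replicate 5 for spred3 (5.60, others 5.95 to 6.12), and a high one was replicate 1 for dusp2 (10.22, others 9.31 to 9.64). On the first principal component, which held 24.7% of the variance, FGF overexpression replicate 1 lay highest at 69.3, with the other 5 at 47.7 to 55.2 and SU5402 at -75.0 to -56.6.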

How the results depend on the processing

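The counts of higher and lower genes stayed within 1.5 times of 2407 and 2290 under every alternative run except a minimum difference of 2-fold, which left 504 and 300. Leaving out 1 array at a time gave 2189 to 2371 higher and 1993 to 2161 lower genes. Shifting arrays to equal medians gave 2757 higher and 1802 lower, so that 60.5% of calls were higher in place of 51.2%. Leaving out replicate 6 of every group gave 2089 and 1872, and leaving out replicate 1 gave 2215 and 1752. The groups share replicate numbers, and same-number arrays of SU5402 and FGF overexpression deviated together by small positive correlations (0.0617 to 0.197, over 0.1 in 3 of 6 pairs). In each group 4 of 6 arrays correlated best with their own number. The main fit had no term for the replicate number, so any spread shared by same-number arrays is left in it. With the replicate block 2594 genes were higher and 2548 lower. Immediate early genes then had 10 lower members in place of 5, and 7 Dusp genes were higher in place of 5, dusp5 and dusp7 being added. Of the 292 genes followed through these alternatives, none reversed the sign of its difference after passing. Genes named outside that set, among them axin2, dkk1b, cdh1, krt5 and some of the paired a and b genes below, were not followed. Signals at or below the array median limit what can be said of low genes, including 13 of 31 FGF ligand genes.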

Other observations

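Genes whose symbols differ only in a final a or b were paired after the values had been seen. Homology was not checked, so some pairs may not be paralogs. Of 2470 such pairs, 1439 had no member that passed between FGF overexpression and SU5402 and 826 had 1. Both members passed in the same direction in 130 pairs and in opposite directions in 75. In all 1236 of the 4940 genes passed, a share near the 24.4% of all genes, so it is no result about such pairs. Same-direction pairs included fgf10a (-3.11) and fgf10b (-3.73), six2a (4.93) and six2b (2.92), and notum1a (-4.44) and notum1b (-2.22). Ranked by the smaller of the 2 differences, the pair with opposite calls that came first was runx2a (-3.97) and runx2b (3.07), Runt-domain transcription factors known from bone formation. It was followed by the secreted kinase genes fam20ca (2.01) and fam20cb (-3.01), the semaphorin genes sema3ga (2.31) and sema3gb (-1.48) and the glypican genes gpc1a (1.36) and gpc1b (-2.57). The semaphorin receptor genes nrp1a (1.03) and nrp1b (-1.59), the ligand genes wnt5a (1.01) and wnt5b (-1.08), and bmp2a (2.27) and bmp2b (-0.83) were also called in opposite directions. The adjusted p was 5.57e-13 for runx2a and 2.26e-10 for runx2b. Levels of the 2 members of a pair come from different probe sets and were not compared.

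In every group the mean level of the skeletal muscle markers was highest on the arrays numbered 5 and 6, at 10.75 and 10.95 in SU5402, 10.81 and 10.98 in control and 10.74 and 10.85 in FGF overexpression, while the other arrays lay between 9.89 and 10.76. The numbers carry no meaning in the labels beyond naming replicates.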
